A study of Rattus norvegicus with 45 samples.

Results

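The liver response to the triazole fungicide myclobutanil was compared between a single day of exposure and 14 days of dosing, using 20 of the 45 arrays of the series. The quantity examined for every gene was the change of effect, which is the difference between myclobutanil and control livers at 14 days minus the same difference at 24 h. The 4 groups entering it were chosen by their titles: controls at 24 h, myclobutanil at 24 h, controls at 14 days and myclobutanil at 14 days, with 5 arrays in each. A positive change of effect means that the difference from control stood higher at 14 days than at 24 h, and a negative one that it stood lower.

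The animals were adult male Sprague-Dawley rats, 10 weeks old, dosed by gavage, and the dose of myclobutanil was 225 mg/kg/day, as stated for the series. The labels do not name what the controls received. RNA of whole liver was hybridised to whole-genome rat arrays of Affymetrix, single livers on single arrays per the labelling protocol. The titles give 45 arrays in 9 groups, whereas the series text speaks of 15 livers and the labelling protocol of 3 rats per group, so the p-values below measure the spread between arrays so titled. Triadimefon, a related triazole given at 175 mg/kg/day, entered a single comparison near the end. In whole liver, fewer cells of a type and less RNA per cell cannot be told apart.

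Triazole fungicides are made to block a fungal cytochrome P450 that takes part in sterol synthesis, and several of them also act on the liver of rodents. There they switch on the constitutive androstane receptor (CAR) and the pregnane X receptor (PXR), which raise genes for drug-metabolising enzymes, conjugating enzymes and transporters. Activators of CAR are also known to enlarge the rodent liver and to drive a wave of hepatocyte division early in dosing. Bile acids are made from cholesterol in hepatocytes, where the enzymes Cyp7a1 and Cyp8b1 set their amount and kind.

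The deposited scores are of log type and their base is not given, so differences are in score units, in which 1 unit would be 2-fold if the base were 2. Errors after ± are standard errors of the limma fit unless named as SD, and a gene is called at an adjusted p under 0.05. The hepatocyte list held 12 measured markers (Alb and Ttr among them), whose mean score per array ran from 3.21 to 4.12 on the 20 arrays, against array medians near 0. The bright end of the scale differed between arrays. The 99th percentile of control array 2 at 24 h was 3.52 and those of myclobutanil arrays 4 and 2 at 14 days were 3.41 and 3.34, while the other 17 lay between 2.81 and 3.15. Among the 1035 probe sets of mean score above 2, the median change of effect was 0.28 as deposited and 0.0062 after quantile normalization, and among the 15290 of mean score under 0 it was 0.0030 and -0.0017. Values after quantile normalization therefore stand beside those of many bright genes.

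**Figure D1:**
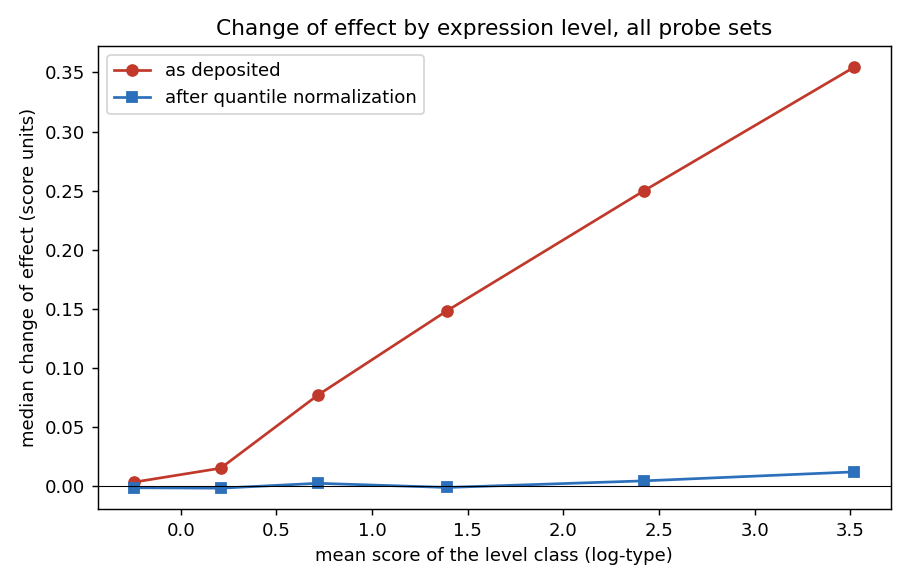
Median change of effect (vertical axis, score units) of all probe sets in 6 classes of mean score (horizontal axis, log-type score), as deposited and after quantile normalization. As deposited the median climbs from 0.0030 in the dimmest class to 0.35 in the brightest, and after quantile normalization it stays between -0.0021 and 0.012.

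The effect of myclobutanil changed between the 2 times in 927 of 14217 genes, 712 with a higher change of effect and 215 with a lower one. The 712 genes are 5.01% of those tested and the 215 are 1.51%. After quantile normalization 292 genes (2.05%) were higher and 436 (3.07%) lower, so the share of higher calls went from 76.8% to 40.1%, and no majority direction is stated. Of the 215 genes called lower as deposited, 213 were called lower after quantile normalization too, and of the 712 called higher, 278 (39.0%) were. No gene was called in opposite directions by the 2 settings. In probe sets, the count was 1073 higher and 344 lower. The count of higher probe sets, but not that of lower ones, moved by more than 1.5 times when some single arrays were left out. It was 420 without control array 2 at 24 h, 1634 without control array 1 and 1976 without control array 4 of that time. It was 679 and 664 without myclobutanil arrays 1 and 2 at 24 h, 529 without control array 4 at 14 days and 460 without myclobutanil array 4 at 14 days. Without the 2 arrays of highest 99th percentile together, an alternative added after seeing the data, 191 probe sets were higher and 219 lower.

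Most of these genes were called against control at 24 h and not at 14 days. At 24 h, 558 genes (3.92%) were raised by myclobutanil and 975 (6.86%) lowered, and at 14 days 159 genes (1.12%) were raised and 10 (0.0703%) lowered. Quantile normalization gave 1171 genes raised by myclobutanil and 857 lowered at 24 h. It gave 145 raised genes at 14 days beside 79 lowered ones. In probe sets 2628 were called at 24 h, and 1717 without myclobutanil array 2. At 14 days 246 probe sets were called, 108 and 145 without control arrays 4 and 5, and 128, 73 and 408 without myclobutanil arrays 2, 4 and 5. Over the 558 genes raised at 24 h the median difference was 0.17 at 24 h and 0.032 at 14 days, and 43 of them were called raised at both times. Over the 975 genes lowered at 24 h the median difference was -0.16 at 24 h and 0.026 at 14 days, and 2 were called lowered at both times. These genes were chosen by their 24 h values, which favours a smaller value at the other time. The change of effect itself was called in the direction back toward control in 197 of the 558 and 429 of the 975, and it uses the same 24 h arrays. Among the 927 called genes, 616 differed from control at 24 h only, 59 at 14 days only, 10 in opposite directions at the 2 times and 242 at neither. The treated livers differed between the times in 342 of the 616, and the control livers in 19. Over the 927 called genes these counts were 435 and 32, and over all 14217 genes 828 and 47. The called genes were chosen with these same arrays.

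**Figure D2:**
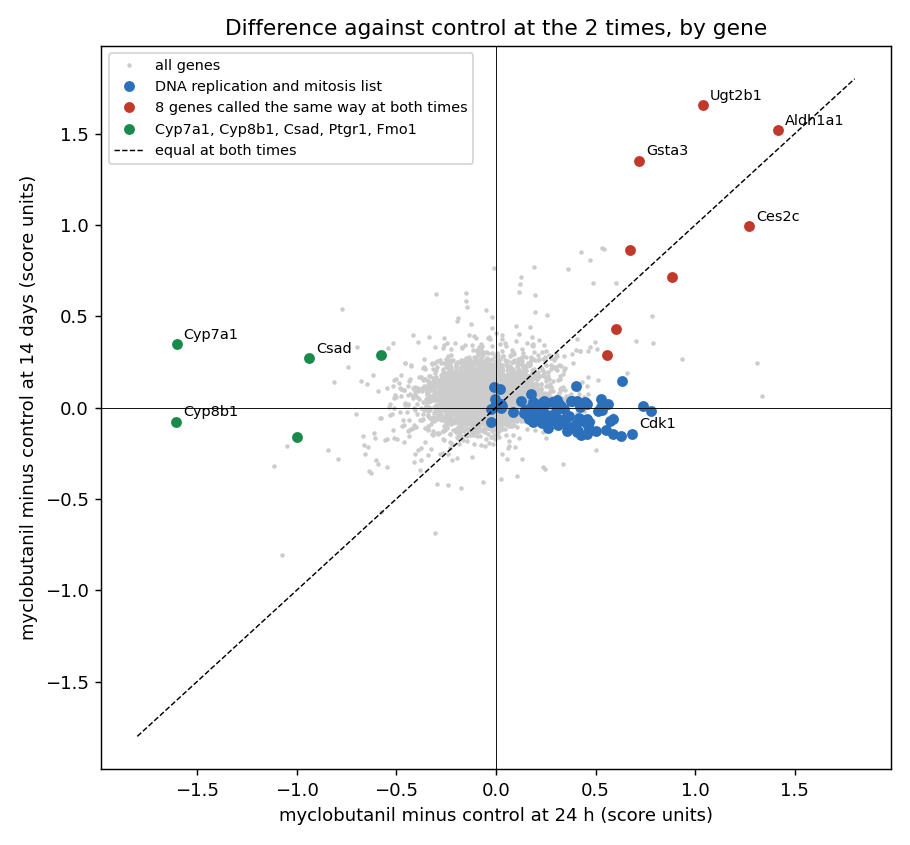
Difference between myclobutanil and control (score units) at 24 h (horizontal axis) and at 14 days (vertical axis) for 14217 genes, each a point, with the line of equal differences dashed. Members of the DNA replication and mitosis list reach 0.78 at 24 h and lie near 0 at 14 days, Cyp7a1 and Cyp8b1 lie at -1.60 at 24 h, and Aldh1a1 and Ugt2b1 lie high at both times.

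DNA replication and mitosis genes were raised at 24 h and stood at control level at 14 days. Of 90 measured genes of this list, 73 had a lower change of effect and 0 a higher one, against 1.51% and 5.01% of all genes. Their median change of effect was -0.32, against 0.032 over all genes. At 24 h 79 of the 90 were raised and 0 lowered, against 3.92% and 6.86% of all genes, with a median difference of 0.31. At 14 days limma called 0 raised and 0 lowered (3 and 0 at an unadjusted p under 0.05), with a median difference of -0.021. Between the 2 times, 81 of the 90 fell in the myclobutanil livers, against 412 of 14217 genes. After quantile normalization 76 of the 90 had a lower change of effect, against 3.07% of all genes. The count lay between 63 and 74 when any 1 array was left out, and it was 62 without the 2 arrays of highest 99th percentile. Averaged over the list, the scores of the 5 arrays were 0.16, 0.24, 0.14, 0.16 and 0.32 in controls at 24 h and 0.64, 0.50, 0.43, 0.40 and 0.62 with myclobutanil at 24 h. They were 0.14, 0.22, 0.12, 0.18 and 0.14 in controls at 14 days and 0.091, 0.16, 0.11, 0.17 and 0.13 with myclobutanil at 14 days. All 5 treated arrays lay above all 5 controls at 24 h, and the groups overlapped at 14 days.

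**Figure D3:**
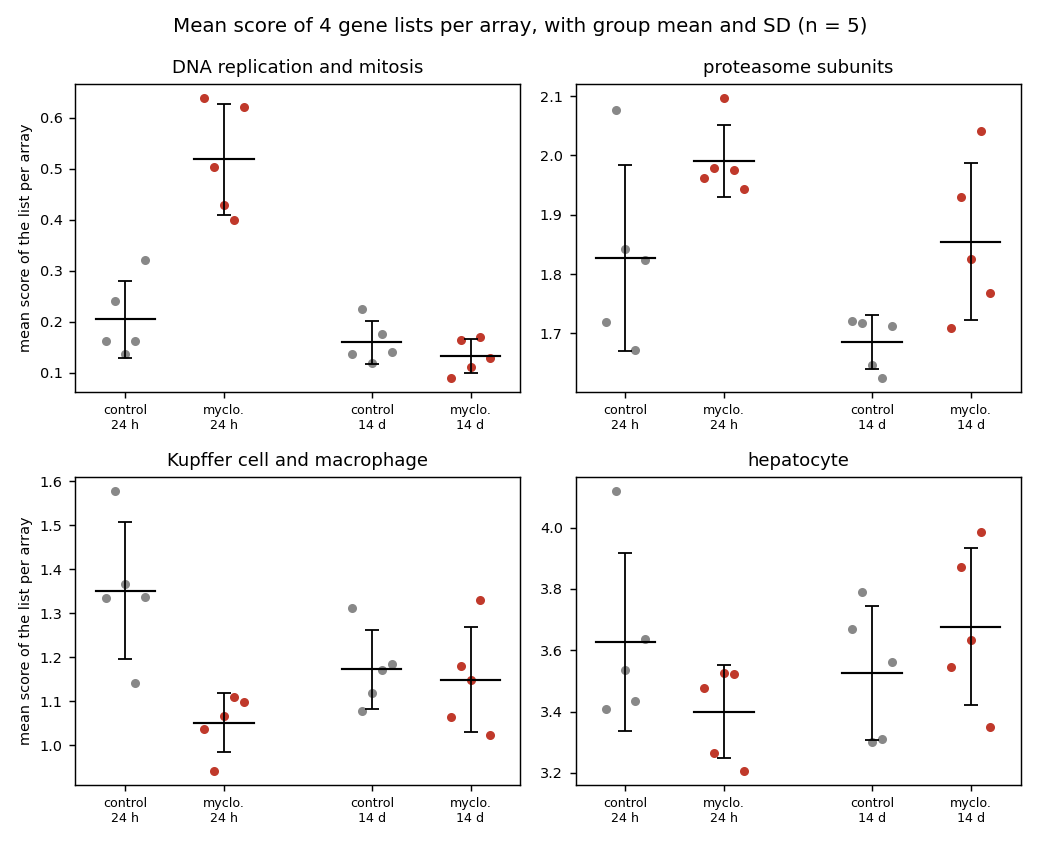
Mean score of 4 gene lists on each of 20 arrays (vertical axis, log-type score), by group, with the group mean and SD (n = 5). The DNA replication and mitosis list is high in the 5 myclobutanil arrays at 24 h (0.40 to 0.64) and at control level in those at 14 days (0.091 to 0.17), whereas control array 2 at 24 h lies highest of its group in the other 3 lists.

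Promoters of 3 of these genes show sequence elements that are known from cell cycle genes. They were read from RefSeq on the rat assembly GRCr8 as windows of 300 bases that span the annotated start of the gene and lie mostly before it. Capitals mark matches, on either strand, to CCAAT, the element bound by the factor NF-Y, to TTTGAA, a core of the cell cycle homology region, and to TTTGGCGC, an E2F element.

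Cdk1, chr20:19265043-19265342, plus strand: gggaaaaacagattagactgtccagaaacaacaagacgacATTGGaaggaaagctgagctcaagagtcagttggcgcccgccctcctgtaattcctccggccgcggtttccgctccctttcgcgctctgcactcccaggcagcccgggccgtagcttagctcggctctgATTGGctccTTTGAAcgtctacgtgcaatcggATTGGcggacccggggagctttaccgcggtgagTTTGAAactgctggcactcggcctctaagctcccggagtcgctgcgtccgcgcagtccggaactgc

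Top2a, chr10:84473044-84473343, minus strand: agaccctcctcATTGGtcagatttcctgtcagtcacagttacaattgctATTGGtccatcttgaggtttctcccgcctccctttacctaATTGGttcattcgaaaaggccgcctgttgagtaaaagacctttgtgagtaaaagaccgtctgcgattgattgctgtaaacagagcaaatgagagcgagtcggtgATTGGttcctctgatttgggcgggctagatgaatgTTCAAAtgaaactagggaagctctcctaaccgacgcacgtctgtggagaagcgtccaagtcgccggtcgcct

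Mcm6, chr13:42404303-42404602, minus strand: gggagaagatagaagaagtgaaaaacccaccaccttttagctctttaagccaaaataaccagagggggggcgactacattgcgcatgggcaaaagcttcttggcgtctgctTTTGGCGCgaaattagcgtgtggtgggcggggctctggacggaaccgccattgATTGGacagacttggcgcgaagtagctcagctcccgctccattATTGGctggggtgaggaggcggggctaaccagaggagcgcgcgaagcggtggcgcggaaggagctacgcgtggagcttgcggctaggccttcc

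The Cdk1 window held 3 matches to CCAAT and 2 to TTTGAA, that of Top2a 4 and 1, and that of Mcm6 2 matches to CCAAT and 1 to TTTGGCGC. These 3 were picked after the values were seen, as a mitotic kinase, a chromosome enzyme and a replication helicase with matches. Windows were found for 65 of the 73 genes of the list with a lower change of effect. Of these, 48 (73.8%) held CCAAT, against 37.5% of all 33469 promoters, and 29 (44.6%) held TTTGAA, against 18.3%. TTTGGCGC stood in 9 (13.8%), against 0.493%, and TTTCCCGC, another E2F element, in 3 (4.62%), against 0.974%. The list was made of cell cycle genes, from which these elements are known, so these shares do not bear on the effect of myclobutanil. Matches are descriptions of the sequence, and binding was not measured.

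Cdk1, the kinase that starts mitosis, had the lowest change of effect of all called genes. Its scores on arrays 1 to 5 were 0.11, 0.12, -0.01, 0.12 and 0.59 in controls at 24 h and 1.23, 0.81, 0.60, 0.57 and 1.14 with myclobutanil at 24 h. At 14 days they were 0.01, 0.25, 0.05, 0.14 and 0.03 in controls and -0.13, 0.00, -0.11, -0.02 and 0.02 with myclobutanil. At 24 h 4 controls lay below every treated array, the highest control lay above the lowest treated array, and at 14 days the groups overlapped. The difference from control was 0.68 at 24 h (adjusted p = 6.2e-05) and -0.14 at 14 days (adjusted p = 0.62), and the change of effect was -0.83 ± 0.16 (adjusted p = 0.0019).

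Mcm6, a subunit of the helicase that opens DNA for replication, showed the same pattern without overlap at 24 h. Control arrays at 24 h had scores of -0.21, -0.13, -0.22, -0.18 and 0.01, and treated arrays 0.52, 0.70, 0.45, 0.49 and 0.78. At 14 days the controls had -0.25, -0.13, -0.25, -0.10 and -0.29 and the treated arrays -0.32, -0.19, -0.24, -0.09 and -0.12, and the groups overlapped. Its change of effect was -0.73 ± 0.11 (adjusted p = 0.00020). The other helicase subunits Mcm2, Mcm3, Mcm4, Mcm5 and Mcm7, named as a family after their values were seen, had changes of effect of -0.37, -0.31, -0.54, -0.34 and -0.52, all called. Mcm10, a replication factor outside that ring, was not raised at 24 h (-0.02) and had a change of effect of -0.06 that was not called.

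Pcna, the clamp that holds the replicating polymerase on DNA, was brighter than the other replication genes named here. Its scores at 24 h were 1.13, 1.39, 1.2, 1.16 and 1.42 in controls and 1.97, 1.89, 1.82, 1.81 and 1.97 with myclobutanil. By 14 days the scores were 1.04, 1.13, 1.0, 1.10 and 1.06 in controls and 1.12, 1.23, 1.09, 1.39 and 1.23 with myclobutanil. The groups stood apart at 24 h and overlapped at 14 days. The change of effect was -0.49 ± 0.10 (adjusted p = 0.0028), and -0.64 after quantile normalization.

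Of the remaining genes among the 12 lowest changes of effect, Pclaf, Cdkn3 and Tcf19 are not in the DNA replication and mitosis list and the others are. They were Stmn1 (-0.80), which binds tubulin, the kinetochore subunits Spc24 (-0.78) and Spc25 (-0.65), Pclaf (-0.75), a partner of Pcna, Cdkn3 (-0.74), Ect2 (-0.73), which acts in cell cleavage, Top2a (-0.68), which untangles chromosomes, Ccna2 (-0.65), the cyclin of S phase, Tcf19 (-0.63) and Cdca3 (-0.63). Mki67, the marker of dividing cells used in pathology, had a change of effect of -0.53 (adjusted p = 0.021), a call that was lost without myclobutanil array 1 at 24 h. The call of Cdkn3 (adjusted p = 0.048) held in 4 of 20 repeats with 1 array left out, those without control array 5 or myclobutanil arrays 3 or 4 at 24 h, or without control array 5 at 14 days. Wee1, which restrains Cdk1 and was entered in the circadian clock list, went the same way, with a change of effect of -0.28 (adjusted p = 0.0058), and it was the list's single called member of 22. Of the 17 list members that were not called, Ccnd1, the cyclin of the first growth phase, had a change of effect of -0.32 (adjusted p = 0.12; -0.37 with adjusted p = 0.013 on a dimmer probe set), Ccne1 had -0.10 and Cdk4 had 0.08.

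Of the 12 genes with the highest changes of effect, all but Hsd11b1 were lowered at 24 h, and Kng2l1 alone was called at 14 days. Cyp7a1, the rate-limiting enzyme of bile acid synthesis, led them. Its scores at 24 h were 2.19, 2.69, 2.13, 2.25 and 1.80 in controls and 0.85, 0.24, 0.34, 0.89 and 0.72 with myclobutanil. The later scores of Cyp7a1 were 0.56, 1.87, 1.77, 0.71 and 1.46 in controls and 1.29, 1.07, 1.98, 2.48 and 1.28 with myclobutanil. The groups stood apart at 24 h and overlapped at 14 days, where controls themselves were spread widely. The difference was -1.60 at 24 h (adjusted p = 9.3e-05) and 0.35 at 14 days (adjusted p = 0.62), and the change of effect was 1.95 ± 0.38 (adjusted p = 0.0023), or 1.75 after quantile normalization. The treated livers rose by 1.01 between the times (adjusted p = 0.021), and the controls had a difference of -0.94 (adjusted p = 0.078), so both groups moved in the estimate.

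Cyp8b1, which directs bile acid synthesis toward cholic acid, had the next highest change of effect. Its scores at 24 h were 2.21, 3.03, 2.41, 2.29 and 2.41 in controls and 0.76, 0.98, 0.84, 0.80 and 0.97 with myclobutanil, without overlap. The later scores of Cyp8b1 were 2.32, 2.25, 2.29, 1.95 and 2.55 in controls and 2.32, 2.55, 2.10, 2.03 and 1.98 with myclobutanil, with overlap. The difference was -1.60 at 24 h and -0.08 at 14 days, and the change of effect was 1.53 ± 0.21 (adjusted p = 0.00011), or 1.31 after quantile normalization. The treated livers rose by 1.33 between the times (adjusted p = 9.0e-08), and the controls had a difference of -0.20 (adjusted p = 0.47).

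The rest of bile acid synthesis did not move to this extent. Of 19 measured genes of bile acid synthesis and its control, 3 had a higher change of effect and 0 a lower one, against 5.01% and 1.51% of all genes, and after quantile normalization 2 and 0, against 2.05% and 3.07%. Without control array 4 at 24 h the count was 5. The third was Nr5a2, a nuclear receptor that acts on both enzyme genes, with 0.23 (adjusted p = 0.023), and with 0.12 after quantile normalization (adjusted p = 0.22). Its call was lost without control array 2 at 24 h and without myclobutanil array 4 at 14 days. As deposited, the dimmer probe sets of Nr5a2 had 0.12 and 0.10 and were not called (adjusted p = 0.19 and 0.36). The list's median change of effect was 0.27 as deposited and 0.044 after quantile normalization. Nr0b2, a repressor of Cyp7a1, had 0.31 (adjusted p = 0.61), and Cyp27a1, which begins the alternative route, had 0.49 (adjusted p = 0.058), and 0.22 after quantile normalization (adjusted p = 0.11).

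Csad and Cdo1 make taurine from cysteine, and taurine is joined to bile acids. Csad had scores at 24 h of 2.54, 2.96, 2.30, 2.26 and 2.62 in controls and 1.60, 1.53, 1.62, 1.74 and 1.49 with myclobutanil. At 14 days the scores were 2.49, 2.48, 2.31, 2.22 and 2.84 in controls and 2.65, 2.90, 2.72, 3.04 and 2.39 with myclobutanil. The groups stood apart at 24 h and overlapped at 14 days, and the change of effect was 1.21 ± 0.21 (adjusted p = 0.00082), or 0.97 after quantile normalization. Cdo1 had a change of effect of 0.77 (adjusted p = 0.026), or 0.45 after quantile normalization (adjusted p = 4.7e-05). As deposited its call was lost without control array 2 or myclobutanil array 2 at 24 h, control array 4 at 14 days, or myclobutanil arrays 2 or 4 at 14 days.

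Other genes among the 12 highest stood low at 24 h as well. Ptgr1, which reduces prostaglandins and reactive aldehydes, had a difference of -0.58 at 24 h and 0.29 at 14 days, and a change of effect of 0.86 ± 0.11 (adjusted p = 0.00011). Fmo1, a flavin monooxygenase that oxidises drugs, had -1.0 and -0.16, and a change of effect of 0.84 ± 0.16 (adjusted p = 0.0017). Pklr, the liver enzyme at the end of glycolysis, had -0.68 and 0.15, and a change of effect of 0.82 ± 0.20 (adjusted p = 0.013). After quantile normalization these 3 changes of effect were 0.65, 0.66 and 0.60, all called. Slc28a2, a nucleoside carrier, Kng2l1, a kininogen gene, and Rnf125, a ubiquitin ligase, had 0.79, 0.73 and 0.70, and 0.65, 0.43 and 0.49 after quantile normalization. Kng2l1 was among the 10 genes called in opposite directions, with -0.34 at 24 h (adjusted p = 0.027) and 0.39 at 14 days (adjusted p = 0.047). Its dimmer probe sets had 0.34 and 0.19 at 14 days and were not called there (adjusted p = 0.054 and 0.43). Their changes of effect were 0.65 (adjusted p = 0.0022) and 0.46 (adjusted p = 0.052).

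The calls of the last 2 of the 12 to be described were lost without some single arrays, as was that of Cdo1. Tsc22d1, a transcriptional regulator, had a change of effect of 0.84 (adjusted p = 0.022), and 0.62 after quantile normalization (adjusted p = 0.071). Its call was lost without control array 2 at 24 h, control array 4 at 14 days or myclobutanil array 4 at 14 days, and its 3 dimmer probe sets were not called. Hsd11b1, which regenerates active glucocorticoid, had 0.81 (adjusted p = 0.025), and 0.50 after quantile normalization (adjusted p = 0.029). The call of Hsd11b1 was lost in 7 of 20 repeats: without control array 2 at 24 h, myclobutanil arrays 2 or 5 at 24 h, control arrays 3 or 4 at 14 days, or myclobutanil arrays 2 or 4 at 14 days.

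**Figure D4:**
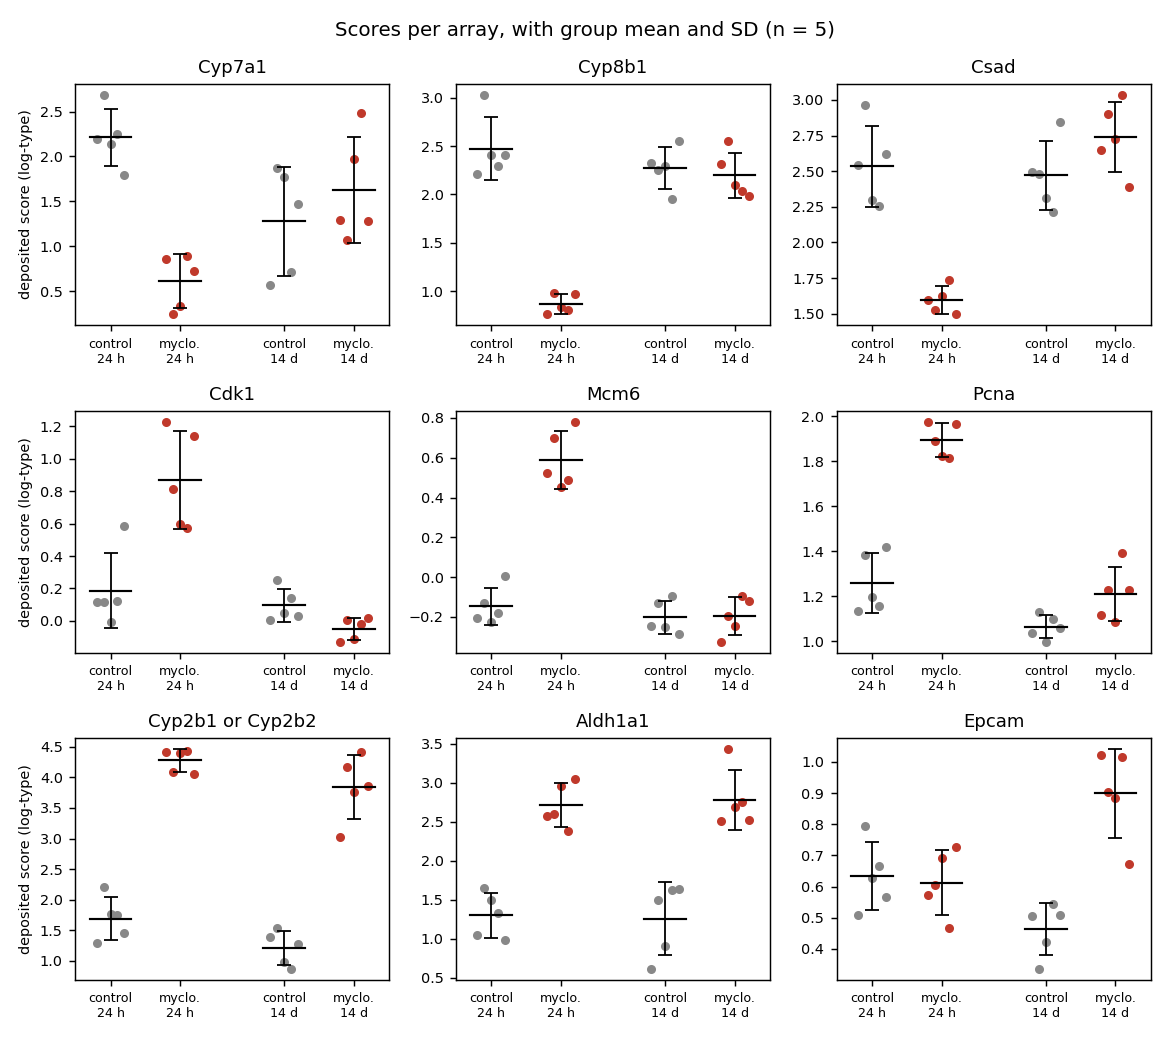
Deposited scores (vertical axes, log-type) of 9 genes on each of 20 arrays, by group, with the group mean and SD (n = 5). Against controls of the same time, Cyp7a1, Cyp8b1 and Csad are low, and Cdk1, Mcm6 and Pcna high, with myclobutanil at 24 h. At 14 days treated and control arrays of these genes overlap. Cyp2b1 or Cyp2b2 and Aldh1a1 are high with myclobutanil at both times, and Epcam is high with it at 14 days.

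Fuel and amino acid genes of hepatocytes showed smaller numbers of calls in the same direction. Of 46 measured periportal urea cycle and amino acid genes, 12 were lowered and 0 raised at 24 h as deposited, 0 were called at 14 days, and 5 had a higher change of effect, against 5.01% of all genes. After quantile normalization 16 were lowered at 24 h and 5 at 14 days, and 5 had a higher change of effect, against 2.05% of all genes. As deposited these were Csad, Cdo1, Bckdha, of branched amino acid breakdown (0.25, adjusted p = 0.026), Sdsl, a serine dehydratase relative (0.25, adjusted p = 0.0044), and Gpt2, an alanine aminotransferase (0.66, adjusted p = 0.024). Gpt2 was not called after quantile normalization (0.47, adjusted p = 0.071), nor without control array 2 at 24 h, control array 4 or myclobutanil array 4 at 14 days, and Bckdha was not called after quantile normalization (0.09). The count of 5 was 8 and 2 without control arrays 1 and 2 at 24 h, 3 without control array 4 at 14 days, and 2 and 8 without myclobutanil arrays 4 and 5 at 14 days. Of 35 genes of glycolysis, gluconeogenesis and glycogen, 4 had a higher change of effect, against 5.01% of all genes. They were Pklr, Slc37a4, which carries glucose 6-phosphate (0.55, adjusted p = 0.012), and Pdk1 and Pdk2, which switch off pyruvate dehydrogenase (0.44 and 0.52). After quantile normalization the values of Slc37a4, Pdk1 and Pdk2 were 0.33, 0.32 and 0.32, and 4 genes of the list were higher and 1 lower, against 2.05% and 3.07% of all genes. The count was 9 without control array 4 at 24 h, 7 without control array 2 at 14 days, 7 without myclobutanil array 5 at 14 days and 0 without the 2 arrays of highest 99th percentile.

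Lipid genes gave counts that changed with the arrays. Of 42 genes of fatty acid and triglyceride synthesis 5 had a higher change of effect, against 5.01% of all genes. After quantile normalization 3 were higher and 1 lower, against 2.05% and 3.07%. Acacb, which makes the malonyl-CoA that restrains fatty acid oxidation, had 0.35 (adjusted p = 0.014), the desaturase Scd2 had 0.32 and Cd36, a fatty acid carrier, 0.59, and these 3 were called after quantile normalization too. Acaca, which starts fatty acid synthesis, had 0.60 and Acss2, which makes acetyl-CoA, 0.50, and neither was called after it (0.42 and 0.28). As deposited, the dimmer probe sets of Scd2 had 0.023, 0.069 and 0.085 and were not called (adjusted p = 0.76, 0.23 and 0.22). The count of 5 was 1 and 3 without control arrays 2 and 3 at 24 h, 3 without myclobutanil array 1 or 2 at 24 h, 9 without control array 2 at 14 days and 2 without myclobutanil array 4 at 14 days. Without the 2 arrays of highest 99th percentile limma called 0 of the 42. Of 45 genes of fatty acid oxidation limma called 0 in either direction (4 higher and 0 lower at an unadjusted p under 0.05), and of 25 genes of sterol synthesis and uptake 0 (2 higher and 3 lower at an unadjusted p). After quantile normalization 1 of the 25 was lower, and the median of the sterol list went from 0.0050 to -0.15. As deposited Cyp51, the mammalian form of the enzyme at which triazoles are aimed, had a difference of 0.12 at 24 h, 0.25 at 14 days and a change of effect of 0.12 (95% interval -0.17 to 0.42, adjusted p = 0.67).

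**Figure D5:**
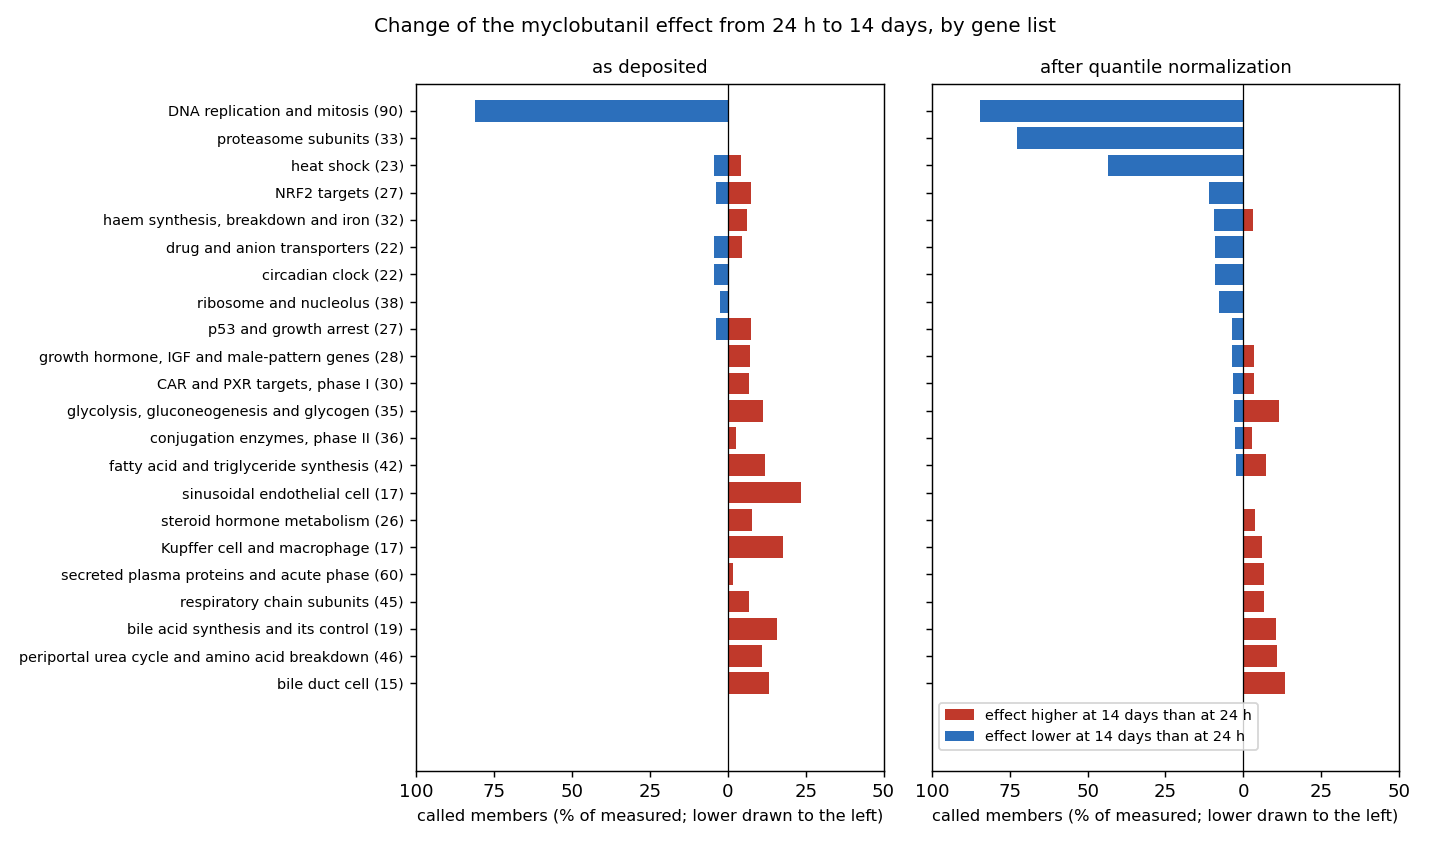
Members called with a higher change of effect (drawn to the right) or a lower one (drawn to the left), as percent of the measured members (in parentheses) of each list, as deposited and after quantile normalization. DNA replication and mitosis is called lower in both panels (73 and 76 of 90), while proteasome subunits are called in the second alone (0 and 24 of 33).

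Several drug-metabolising genes of the CAR and PXR response were raised at both times. Of 30 measured phase I genes 7 were raised at 24 h (3.92% of all genes) and 7 at 14 days (1.12%). The 5 raised at both times were Aldh1a1, Ces2c, Cyp3a23-3a1, Ephx1 and Akr7a3, while Por and Alas1 were called at 24 h alone and Cyp3a2 and Cyp3a18 at 14 days alone. In the change of effect limma called 0 with a lower change of effect (2 at an unadjusted p under 0.05, and 1 after quantile normalization). The 2 with a higher one were the flavin monooxygenases Fmo1 and Fmo5, which were lowered at 24 h. Fmo5 had 0.66 (adjusted p = 0.034), and 0.40 after quantile normalization (adjusted p = 0.21). The call of Fmo5 was lost without control arrays 2 or 3 or myclobutanil array 1 at 24 h, control array 2 at 14 days, or myclobutanil arrays 2 or 4 at 14 days. The probe set of Cyp2b1 or Cyp2b2, the classical CAR targets, had scores at 24 h of 1.28, 2.21, 1.77, 1.74 and 1.45 in controls and 4.41, 4.09, 4.39, 4.44 and 4.06 with myclobutanil. By 14 days the scores were 1.40, 1.53, 0.99, 0.87 and 1.28 in controls and 3.03, 4.17, 3.77, 4.41 and 3.86 with myclobutanil. Treated and control arrays stood apart at both times. As deposited the difference was 2.59 at 24 h and 2.63 at 14 days, and the change of effect was 0.05 (95% interval -0.55 to 0.65, adjusted p = 0.95). Probe sets of mean score above 2 had a median change of effect of 0.28 as deposited and 0.0062 after quantile normalization. An equal difference at both times is therefore not stated for this bright probe set.

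The 8 genes with the largest 24 h difference among those called in the same direction at both times were chosen by their differences, so their values are a description. Aldh1a1, which oxidises retinal and other aldehydes, had 1.41 at 24 h and 1.52 at 14 days, with a change of effect of 0.11 (95% interval -0.47 to 0.68). Its scores at 14 days were 0.62, 1.5, 0.91, 1.63 and 1.65 in controls and 2.51, 3.43, 2.68, 2.75 and 2.52 with myclobutanil, without overlap. Ces2c, a carboxylesterase, had 1.27 and 0.99, Slco1a4, an anion uptake carrier, 0.88 and 0.72, Cyp3a23-3a1, a PXR target, 0.67 and 0.86, and Pir 0.60 and 0.43. Ugt2b1, a glucuronidating enzyme, had 1.04 and 1.66, and Gsta3, a glutathione transferase, 0.72 and 1.35. Zwint, a kinetochore protein, had 0.56 and 0.29. As deposited the change of effect was called in 0 of the 8. After quantile normalization Slco1a4 (-0.50, adjusted p = 0.011) and Zwint (-0.42, adjusted p = 0.0013) were called lower. A change of effect that is not called does not show an equal difference, so an unchanged difference is not stated for any of the 8.

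Among 22 drug and anion transporters, 1 had a lower change of effect and 1 a higher one, against 1.51% and 5.01% of all genes. The lower one, Abcb1a, a pump that moves drugs out of cells, had scores at 24 h of -0.28, 0.05, 0.09, -0.22 and -0.09 in controls and 0.40, 0.60, 0.77, 0.45 and 0.63 with myclobutanil. At 14 days they were -0.14, -0.06, -0.24, -0.12 and -0.18 in controls and 0.03, -0.11, 0.04, 0.05 and 0.19 with myclobutanil. The groups stood apart at 24 h and overlapped at 14 days, and the change of effect was -0.47 ± 0.13 (adjusted p = 0.029), with a second probe set at -0.40 (adjusted p = 0.040). The higher one, Abcg2, another drug pump, had 0.44 (adjusted p = 0.045) and was not called after quantile normalization (adjusted p = 0.11). Its call held in 6 of 20 repeats with 1 array left out, those without control arrays 4 or 5 or myclobutanil arrays 1 or 4 at 24 h, or without control array 2 or myclobutanil array 5 at 14 days. The call of Abcb1a was lost without myclobutanil arrays 2 or 3 at 24 h, control arrays 2 or 4 at 14 days, or myclobutanil arrays 2 or 4 at 14 days. Alas1, which limits haem synthesis, had 0.94 at 24 h and 0.26 at 14 days, and its change of effect of -0.67 was not called as deposited (adjusted p = 0.093) and was called after quantile normalization (-0.95, adjusted p = 0.0084). Por, which hands electrons to P450 enzymes, had 0.79 and 0.35 and was not called under either setting (adjusted p = 0.29 and 0.11).

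The calls of proteasome and heat shock genes depended on the normalization. Of 33 proteasome subunits, 16 were raised at 24 h and 1 at 14 days (23 and 29 at an unadjusted p under 0.05), against 3.92% and 1.12% of all genes. In the change of effect limma called 0 as deposited (1 higher and 0 lower at an unadjusted p). After quantile normalization 31 of the 33 were raised at 24 h and 3 at 14 days, against 1171 and 145 of 14217 genes. Under that setting 24 had a lower change of effect, against 3.07% of all genes. The median change of effect of the subunits was -0.020 as deposited and -0.19 after quantile normalization. Of 23 heat shock genes 7 were raised and 1 lowered at 24 h, against 3.92% and 6.86% of all genes. After quantile normalization 17 were raised and 0 lowered at 24 h, against 1171 and 857 of 14217 genes. In the change of effect 1 of the 23 was higher and 1 lower, a share near that of all genes (5.01% and 1.51%), and after quantile normalization 0 were higher and 10 lower (2.05% and 3.07% of all genes). The lower one was Chordc1, a partner of Hsp90 (-0.25, adjusted p = 0.044), and the higher one was Cirbp, a cold-inducible RNA-binding protein (0.14, adjusted p = 0.046), not called after quantile normalization. With 1 array left out, each call held in 6 of 20 repeats. For Chordc1 these were without control arrays 2 or 4 or myclobutanil arrays 1 or 5 at 24 h, or myclobutanil arrays 3 or 5 at 14 days. For Cirbp they were without control arrays 1 or 4 or myclobutanil arrays 3 or 5 at 24 h, or control array 4 or myclobutanil array 5 at 14 days.

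Markers of other liver cells were followed beside these genes. Of 17 Kupffer cell and macrophage markers 13 were lowered at 24 h and 0 raised, against 6.86% and 3.92% of all genes. At 14 days 1 was raised and 0 lowered (1 and 4 at an unadjusted p under 0.05), against 1.12% and 0.0703% of all genes. After quantile normalization 13 were lowered at 24 h, against 857 of 14217 genes. At 14 days 0 were then raised and 2 lowered, against 145 and 79 of 14217 genes. Clec4f, a receptor of Kupffer cells, had scores at 24 h of 2.49, 2.99, 2.63, 2.17 and 2.5 in controls and 1.79, 1.49, 1.68, 1.88 and 1.96 with myclobutanil, without overlap. At 14 days they were 2.51, 2.43, 2.15, 2.26 and 2.33 in controls and 1.92, 2.18, 2.12, 2.42 and 1.64 with myclobutanil, with overlap. The difference was -0.79 at 24 h and -0.28 at 14 days, and the change of effect of 0.51 was not called (adjusted p = 0.079), nor was its value of 0.29 after quantile normalization (adjusted p = 0.22). The change of effect was called higher in 3 of the 17, Aif1 (0.37), Csf1r (0.32) and Mrc1 (0.26), against 5.01% of all genes. After quantile normalization it was called higher in 1, Aif1 (0.30, adjusted p = 0.037), against 2.05% of all genes. As deposited, a dimmer probe set of Aif1 had a change of effect of -0.042 that was not called (adjusted p = 0.52). The count of 3 was 0, 1 and 9 without control arrays 2, 3 and 4 at 24 h, 1 without myclobutanil array 2 at 24 h, and 1 and 6 without myclobutanil arrays 4 and 5 at 14 days. The summed level of the markers, as their mean score per array, ran from 1.14 to 1.58 in controls and from 0.94 to 1.11 with myclobutanil at 24 h, and from 1.08 to 1.31 and from 1.02 to 1.33 at 14 days. The part of these cells in the metabolic genes above was not tested. Of 17 sinusoidal endothelial markers 4 were called higher as deposited, Dnase1l3, Emcn, Kdr and Lyve1 (0.16 to 0.28), against 5.01% of all genes, and limma called 0 after quantile normalization. That count of 4 was 0 without control array 2 or myclobutanil array 2 at 24 h, or without control array 4 or myclobutanil array 4 at 14 days. It was 1 without control array 3 or myclobutanil arrays 1 or 5 at 24 h or myclobutanil array 2 at 14 days, and 2 without control array 3 at 14 days.

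Epcam, an adhesion molecule of bile duct and progenitor cells, differed from control at 14 days and not at 24 h. Its scores at 24 h were 0.51, 0.80, 0.63, 0.67 and 0.57 in controls and 0.57, 0.60, 0.69, 0.47 and 0.73 with myclobutanil. By 14 days the scores were 0.51, 0.34, 0.42, 0.54 and 0.51 in controls and 1.02, 0.90, 0.89, 1.02 and 0.67 with myclobutanil. The groups overlapped at 24 h and stood apart at 14 days, and the change of effect was 0.46 ± 0.08 (adjusted p = 0.0014), or 0.39 after quantile normalization. Anxa4, an annexin of the same list, had -0.16 at 24 h, 0.18 at 14 days and a change of effect of 0.34 ± 0.06 (adjusted p = 0.0016). The defining duct keratins Krt19 and Krt7 and the duct secretin receptor Sctr had changes of effect of -0.00, 0.01 and 0.02 and were not called. The change of effect was called in 2 of 15 measured bile duct markers, against 5.01% of all genes. Another marker, Krt8, which hepatocytes also make, was raised at 14 days (0.38, adjusted p = 0.046), with a change of effect of 0.20 that was not called (adjusted p = 0.41). Pgd, of the pentose phosphate pathway, also differed at 14 days (0.40) and not at 24 h (-0.13), with a change of effect of 0.53 (adjusted p = 0.0086) that was not called after quantile normalization (0.34, adjusted p = 0.069).

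Whether the change between the times differed from that under triadimefon was tested directly, as the 14 days minus 24 h difference of myclobutanil livers minus that of triadimefon livers, in which the controls cancel. This compares 225 mg/kg/day of myclobutanil with 175 mg/kg/day of triadimefon, so the doses differ. It was called in 43 genes (0.302%), 22 higher and 21 lower, and in 189 after quantile normalization, 69 higher and 120 lower. In probe sets the count was 60. It was 26 and 18 without myclobutanil arrays 2 and 5 at 24 h, and 39 and 32 without myclobutanil arrays 2 and 3 at 14 days. It was 105, 22 and 37 without triadimefon arrays 1, 2 and 3 at 24 h, and 34 without triadimefon array 1 or 5 at 14 days. The 5 highest were genes that interferon induces or that are related to them: Slfn4 (0.80), Oas1a (0.78), Mx2 (0.76), Irf7 (0.73) and Isg15 (0.66). Mx2, which restrains viruses, had 0.28, 0.23, 0.25, 0.14 and 0.11 with myclobutanil at 24 h and 0.07, 0.35, 0.54, 0.31 and 0.43 at 14 days. With triadimefon it had 0.84, 0.63, 0.75, 0.28 and 0.83 at 24 h and -0.02, 0.27, 0.04, -0.10 and 0.04 at 14 days. The triadimefon arrays of 24 h were the high ones, and the myclobutanil arrays of the 2 times overlapped (adjusted p of the difference between compounds = 0.0065).

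The 5 lowest were Ces2c (-0.72), Psat1 (-0.56), Sbspon (-0.42), Rfc4 (-0.35) and Mnd1 (-0.35). Ces2c had 1.99, 1.98, 2.26, 1.89 and 2.16 with myclobutanil at 24 h and 1.55, 1.91, 1.75, 1.64 and 1.44 at 14 days. With triadimefon it had 1.59, 2.04, 1.88, 1.48 and 2.21 at 24 h and 2.07, 2.44, 1.93, 2.17 and 2.22 at 14 days (adjusted p = 0.0082). Ces2c thus fell between the times under myclobutanil, by 0.40 (adjusted p = 0.0086). Of the 90 DNA replication and mitosis genes 5 were called lower in this test and 0 higher, against 21 and 22 of 14217 genes. The 5 were Rrm1, Rfc4, Rfc5, Rpa2 and Cks1b, and the list median was -0.20 against 0.016 over all genes. After quantile normalization 11 of the 90 were lower and 0 higher, against 120 and 69 of 14217 genes. Under triadimefon, with the same controls, the list had a median change of effect of -0.16, against 0.019 over all genes. For Cyp7a1 the compounds differed by 0.02 ± 0.38 (adjusted p = 0.99) and for Cyp8b1 by 0.44 ± 0.21 (adjusted p = 0.42), neither of them called.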

How the data were processed

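The authors deposited 1 score per probe set and array, of log type with its base not given, centred near 0 on each array; summarisation and normalization are not given in the sources used here. Scores ran from -0.98 to 5.69. Of 31099 probe sets, 57 control ones were left out and 31042 tested. Arrays have no read depth, and their number limits the precision. The deposited annotation lists 20826 probe sets with 1 gene, 436 with several and 9780 with none; 20758 identifiers matched RefSeq (GRCr8), with 0 symbols changed. A gene is its probe set of highest mean (14217 genes).

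limma 3.58.1 in R 4.3.3 fitted 9 group means over 45 arrays with Benjamini-Hochberg adjustment over all probe sets. The files held such scores where log2 or linear values had been planned for, so differences are in score units. Members and lists (34 lists, 998 of 1136 entries measured) were chosen with earlier results of these data known; lists share genes, and the figure of lists shows those with 3 or more calls over both settings. Named genes were the 12 highest and 12 lowest changes of effect, up to 4 called members of each list described, the 8 with the largest 24 h difference called at both times, a panel of 44 genes, and the 5 highest and lowest between compounds; genes outside it are named as family or list members after their values were seen. Alternatives are in the closing section. The fit was tested on simulated data with independent noise for each probe set and array. These lack the differences of the bright end between arrays, so that test does not cover them. Same-numbered treated and control arrays correlated between -0.37 and 0.19, so numbers were not used as pairs. Coordinates are those of the RefSeq promoter table. Figures were drawn with matplotlib 3.10.9 in Python 3.11.15.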

Additional observations from a re-analysis of the deposited data

Results flagged for a closer look

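Each result in this section was picked out because the difference from control changed between the 2 times, because the change between times differed between the compounds, or because 1 array stood far from the other 4 of its group. The effect of myclobutanil differed between 24 h and 14 days in 1073 probe sets with a higher and 344 with a lower change of effect. Among the 12 lowest the change of effect was -0.83 for Cdk1, -0.80 for Stmn1, -0.78 for Spc24, -0.75 for Pclaf, -0.74 for Cdkn3 and -0.73 for Ect2. It was -0.73 for Mcm6, -0.68 for Top2a, -0.65 for Spc25, -0.65 for Ccna2, -0.63 for Tcf19 and -0.63 for Cdca3. Among the highest it was 1.95 for Cyp7a1, 1.53 for Cyp8b1, 1.21 for Csad, 0.86 for Ptgr1, 0.84 for Fmo1 and 0.84 for Tsc22d1. It was 0.82 for Pklr, 0.81 for Hsd11b1, 0.79 for Slc28a2, 0.77 for Cdo1, 0.73 for Kng2l1 and 0.70 for Rnf125.

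The change between the times, myclobutanil minus triadimefon, was 0.80 for Slfn4, 0.78 for Oas1a, 0.76 for Mx2, 0.73 for Irf7 and 0.66 for Isg15. It was -0.72 for Ces2c, -0.56 for Psat1, -0.42 for Sbspon, -0.35 for Rfc4 and -0.35 for Mnd1.

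Single arrays stood apart from the other 4 of their group in 18 of 472 gene groups, where chance gives about 1 in 20. Control array 2 at 24 h was the high one in 7 of them, with scores of 3.93 for Cyp3a23-3a1, 3.03 for Cyp8b1, 3.83 for Ephx1, 3.46 for Insig2, 2.27 for Ndufs3, 0.78 for Slc48a1 and 3.33 for Tsc22d1. Control array 5 at 24 h was high for Cdk1 (0.59) and Cdca3 (0.45). Control array 2 at 14 days was high for Abcg2 (0.74) and Por (1.43), and control array 1 at 14 days was low for Psat1 (-0.17). Among myclobutanil arrays at 14 days, array 2 was high for Aldh1a1 (3.43), array 4 for Csf1r (1.06) and Cyp1a1 (0.44), array 3 was low for Mcm7 (0.53) and array 1 low for Oas1a (0.24). Myclobutanil array 4 at 24 h was low for Srxn1 (0.63).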

How the results depend on the processing

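Main counts of probe sets were 1073 higher and 344 lower in the change of effect, 2628 at 24 h, 246 at 14 days and 60 between compounds by time. After quantile normalization the change of effect gave 496 higher and 713 lower, and the comparison of compounds 277. With the fit restricted to the groups compared, 602 were higher, 1250 were called at 24 h, 110 at 14 days and 33 between compounds. Among probe sets above the median level 193 were lower, and with array weights 187 differed between compounds. At an adjusted p under 0.01 the counts were 242, 154, 1130, 76 and 14, and with a difference of at least 0.58 they were 32, 21, 60, 20 and 8. Without the 2 arrays of highest 99th percentile together, 191 were higher and 219 lower. Leaving out 1 array gave 420 to 1976 higher, 242 to 450 lower, 1717 to 3154 at 24 h, 73 to 408 at 14 days and 18 to 105 between compounds. The cause was not tested. With the replicate block the counts were 1133, 358, 2787, 244 and 38, and the numbers do not pair the samples. The other alternatives, arrays shifted to the same median, a variance trend with robust moderation and the file name ending as a covariate, left all 5 counts within 1.5 times. Of 75 called genes named, 50 stayed called after quantile normalization, 67 with the replicate block, 33 without the 2 arrays, and 38 in all 20 repeats with 1 array left out. No direction reversed in these alternatives. For 22 named called genes with several probe sets, averaging them, which has no test, moved the value by more than its standard error in 11. The SD within groups was 0.18 for probe sets of mean score above 2 and 0.040 for those under 0, so a bright probe set needed a larger difference to be called.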
